A study of Mus musculus with 8 samples.

Results

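The difference between PML knockdown and wild-type cells in their response to differentiation was measured over 8 arrays and 19938 genes. The cells were of CGR8, a feeder-independent mouse embryonic stem cell (ESC) line labelled with the background strain C57BL/6, the donor strain 129P2/OlaHsd and passages 5-13 in every group. The 4 groups of 2 arrays were PML KD EBs D4, WT EBs D4, PML KD ESC D0 and WT ESC D0. PML KD cells carried a stable PML short hairpin delivered by a pLKO.1 lentivirus and were selected with puromycin, while the labels call the controls WT and do not say whether those cells carried the empty vector. Day 0 cells (D0) were ESCs grown with LIF, leukaemia inhibitory factor, and day 4 cells (D4) were embryoid bodies (EBs), aggregates formed in hanging drops without LIF. The quantity of interest is the change over time in PML KD (EBs minus ESCs) minus the change over time in WT, called the difference of changes below. It equals the PML KD minus WT difference at day 4 less the same difference at day 0, so each gene's value was also divided into what came from day 0 and what came from day 4. All levels are log2 of the deposited signal after quantile normalization over the 8 arrays, all differences are on that log2 scale, ± is the standard error (SE) of a fitted difference, and adjusted p-values are limma's after Benjamini-Hochberg adjustment over the 19938 genes.

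PML is the scaffold protein of PML nuclear bodies, nuclear structures that gather SUMO-modified proteins. In mouse ESCs, LIF acts through its receptor and the kinase JAK to activate STAT3, and with BMP signals that induce Id genes it holds cells in self-renewal. When ESCs aggregate without LIF, the outer cells of the EB become primitive and visceral endoderm, an extraembryonic layer that secretes apolipoproteins and alpha-fetoprotein, while inner cells leave naive pluripotency and approach the epiblast state from which the germ layers form. Trophectoderm, the lineage of the placenta, is normally not made by mouse ESCs.

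Arrays of a group differed by little: the SD of a single array was 0.107 to 0.129 and the correlation within a group 0.996 to 0.997. Pml itself was at 10.52 and 10.67 in PML KD EBs, 10.96 and 10.91 in WT EBs, 11.17 and 11.08 in PML KD ESCs and 11.59 and 11.58 in WT ESCs. It was lower in PML KD at both days (day 0 -0.46 ± 0.08 (adjusted p = 0.00192), day 4 -0.34 ± 0.08 (adjusted p = 0.0145)), and its change over time gave a difference of changes of 0.12 ± 0.11, which did not pass (adjusted p = 0.433). The ESC markers Pou5f1, Nanog, Sox2, Esrrb and Zfp42 lay between 11.91 and 13.69 on the 4 ESC arrays. The PML KD ESC arrays stood apart from the other 6 in their Y-linked genes: Eif2s3y was at 9.98 and 9.86 in PML KD EBs, 10.27 and 10.13 in WT EBs, 5.08 and 4.85 in PML KD ESCs and 10.08 and 10.04 in WT ESCs. Uty and Zfy1 had the same shape, and on chromosome Y 4 of 9 placed genes were among those at least 2-fold apart. On the PML KD ESC arrays chromosomes 8 and 14 were also displaced, with a median day 0 difference 0.27 and 0.18 above the other chromosomes and a median difference of changes 0.32 and 0.24 below them, while at day 4 both stood at 0.00 and 0.01. A rise or fall over time in PML KD, as described below, compares PML KD EBs with PML KD ESCs, which differed in these signals. Whether both came from the same cell population was not tested. The difference of changes cannot be computed without the PML KD ESC group, and the part these displacements have in it was not tested. Without the genes of chromosomes 8, 14 and Y 7678 genes passed.

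In all, 8404 of 19938 genes (42.2%) passed at an adjusted p under 0.05. Of these, 5471 (27.4% of all genes) were higher in PML KD and 2933 (14.7%) lower, where higher means that the gene rose more or fell less over time in PML KD than in WT. The median over all genes was 0.09. The split depends on the scaling: 65.1% of the genes that passed were higher here, 49.9% with the values as deposited, 49.3% after quantile normalization over the probe sets with 1 symbol only and 83.8% after a median shift, where the median of all genes was -0.11, -0.03 and 0.23. At a size of at least 1 on the log2 scale (2-fold), 2018 genes (10.1%) passed, 1463 higher and 555 lower. Of these 72.5% were higher, against 72.9% with the values as deposited, 57.9% in the workbook, 56.8% with normalization over the probe sets with 1 symbol and 93.9% of 3350 genes after a median shift. The PML KD minus WT difference passed in 8759 genes (43.9%) at day 0 and in 5466 genes (27.4%) at day 4. When the 4 EB arrays were normalized and fitted alone, so that the PML KD ESC arrays took no part, 4867 genes passed at day 4.

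Each of the 2018 genes was placed by the share of its difference of changes that was present at day 4. A share within 0.25 of 1 was called day 4 origin, a share within 0.25 of 0 day 0 origin, and a share between 0.25 and 0.75 opposite, since PML KD then stood on opposite sides of WT at the 2 days. These classes are a description with no test. Opposite genes were the most numerous, with 1153 of 2018 (57.1%), followed by 654 of day 0 origin (32.4%) and 174 of day 4 origin (8.62%). This order depends on the limits: with limits at 0.333 and 0.667, day 0 origin came first at 46.2%, before opposite at 38.4%. A further 21 genes differed in the same direction at both days with more at day 0, and 16 with more at day 4. In the opposite class both the day 0 and the day 4 difference passed in 1075 genes, with a median size of 0.74 at day 0 and 0.58 at day 4. In the day 0 class the median size was 1.15 at day 0 and 0.18 at day 4, and in the day 4 class 0.19 and 1.252. The day 4 difference still passed in 136 genes of the day 0 class, and the day 0 difference in 34 genes of the day 4 class. The classes meet without a gap. Just inside and outside the limits lay Eef1e1 (share 0.249) and Zc3hav1 (0.25), and Tmtc1 (0.749) and Mir302a (0.75), and 419 of the 2018 genes lay within 0.05 of a limit.

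**Figure D1:**
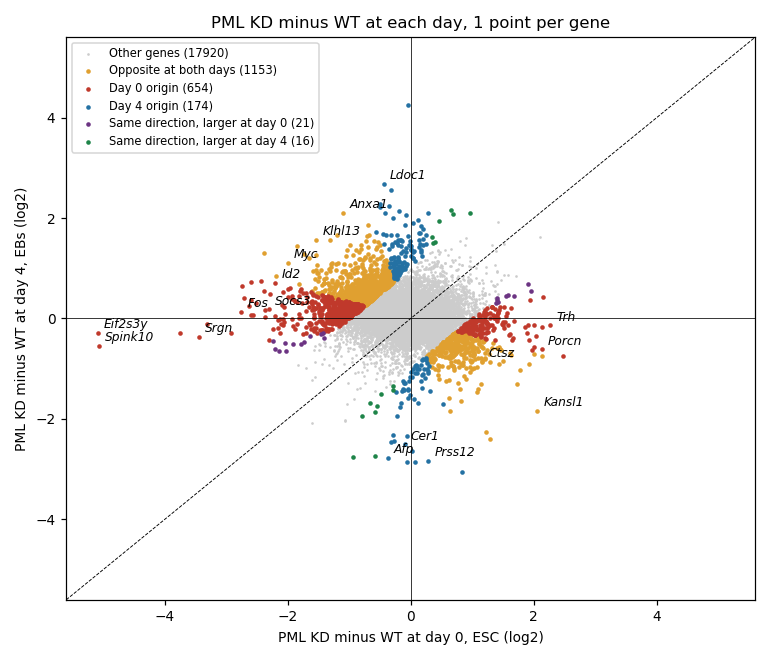
Each point is a gene, with the PML KD minus WT difference in ESCs at day 0 on the x axis and in EBs at day 4 on the y axis, both in log2; points on the dashed line have a difference of changes of 0. Day 0 genes (654) lie along the horizontal axis, day 4 genes (174) along the vertical axis and opposite genes (1153) between them, in the upper left and lower right.

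The difference of changes most often meant opposite movement over time. In 1051 of the 2018 genes (52.1%) both lines changed and in opposite directions. In 376 genes only the change in PML KD passed, in 266 only the change in WT, and in 195 and 130 both moved the same way with the larger or the smaller change in PML KD. Of the 1463 higher genes, PML KD rose over time in 1178 and WT fell in 1056. Of the 555 lower genes, PML KD fell in 444 and WT rose in 391. Origin went with a different picture in the day 4 class: its 57 lower genes rose in both lines in large part (40 in PML KD, 55 in WT), with medians of 0.69 in PML KD and 2.16 in WT, whereas the 323 lower genes of the opposite class fell in PML KD in 281 and rose in WT in 236. Across all 19938 genes the 2 changes over time correlated at 0.47, and the day 0 and day 4 differences at -0.12; these are descriptions across genes that share arrays, and genes are not independent replicates.

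**Figure D2:**
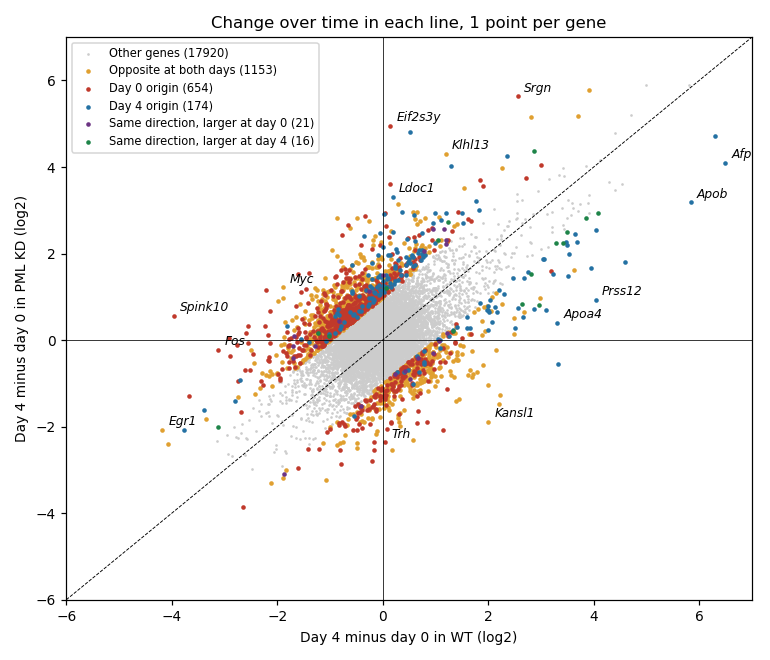
Each point is a gene, with the change over time (EBs minus ESCs, log2) in WT on the x axis and in PML KD on the y axis; the dashed line marks equal changes. The upper left and lower right fields hold the 1051 genes that passed in opposite directions together with others that passed in 1 line only, and Afp and Apob rose in both lines but less in PML KD.

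Among the genes of day 0 origin, the immediate early and LIF-responsive genes stood out. Fos, a subunit of the AP-1 transcription factor that signals switch on within minutes, was at 7.90 and 7.83 in PML KD EBs, 7.70 and 7.76 in WT EBs, 8.13 and 8.05 in PML KD ESCs and 10.85 and 10.84 in WT ESCs. WT ESCs were high and the other 3 groups lay together, so the difference of changes of 2.89 ± 0.10 (adjusted p = 6.87e-06) held a day 0 difference of -2.75 ± 0.07 and a day 4 difference of 0.13 ± 0.07 that did not pass (adjusted p = 0.199). Socs3, the STAT3 target that feeds back on LIF signalling, was at 8.13 and 8.32 in PML KD EBs, 8.20 and 7.88 in WT EBs, 8.45 and 8.13 in PML KD ESCs and 10.59 and 10.60 in WT ESCs. Its arrays had the same shape, with a difference of changes of 2.49 ± 0.20 (adjusted p = 6.74e-05). Zfp36, which promotes the decay of AU-rich mRNAs, was at 8.22 and 8.20 in PML KD EBs, 8.06 and 8.20 in WT EBs, 7.21 and 7.13 in PML KD ESCs and 9.17 and 9.26 in WT ESCs. Here the WT ESCs were again the highest, but PML KD ESCs lay below both groups of EBs, with a difference of changes of 2.12 ± 0.11 (adjusted p = 1.72e-05). Of 34 measured genes in the list of LIF and STAT3 targets 19 were higher, 2 lower and 13 did not pass (median 0.51), and of the 10 at least 2-fold apart 8 were of day 0 origin and 2, Myc and Egr1, opposite. Of 40 immediate early genes, a list that shares members with it, 28 were higher, 4 lower and 8 did not pass (median 0.67), with 8 of 12 of day 0 origin. Against these counts, 27.4% of all genes were higher and 14.7% lower. Not every LIF-responsive gene took part: Klf4 had a difference of changes of 0.18 ± 0.12 and Tbx3 of 0.01 ± 0.12, and neither passed (adjusted p = 0.28 and 0.939), each being lower in PML KD at both days (Klf4 -0.54 at day 0 and -0.36 at day 4, Tbx3 -0.69 and -0.68).

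The upstream sequences of Socs3 and Zfp36 are shown because STAT3, which LIF activates, binds palindromes of the form TTCNNNGAA. The 250 bases before each RefSeq start are given 5′ to 3′ (RefSeq, GRCm38.p6), with matches to TTCNNNGAA, which reads the same on both strands, in capitals. Socs3 (chr11:117969367-117969616, minus strand) has its match 154 bases before the start and Zfp36 (chr7:28379229-28379478, minus strand) has it 17 bases before the start.
Socs3: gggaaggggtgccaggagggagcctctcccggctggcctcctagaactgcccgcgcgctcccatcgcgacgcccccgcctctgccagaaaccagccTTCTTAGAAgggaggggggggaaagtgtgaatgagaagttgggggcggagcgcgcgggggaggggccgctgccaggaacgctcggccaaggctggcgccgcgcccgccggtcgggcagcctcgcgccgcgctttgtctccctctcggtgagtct
Zfp36: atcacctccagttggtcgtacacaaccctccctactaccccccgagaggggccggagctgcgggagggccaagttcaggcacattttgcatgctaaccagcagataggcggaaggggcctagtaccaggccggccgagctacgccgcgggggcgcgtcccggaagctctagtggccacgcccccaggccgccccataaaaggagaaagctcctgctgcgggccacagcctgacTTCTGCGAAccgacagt
Such a match was found in 2306 of 32851 windows of the same length (7.02%), and in 6 of the 29 windows of the LIF and STAT3 list (20.7%). A match is a description of the letters, not a site.

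In every higher gene of day 0 origin PML KD ESCs lay below WT ESCs, which follows from how the class is defined. In the list of the 2-cell-like state, genes that mark a rare ESC state resembling the 2-cell embryo, 10 of 14 measured members were higher and 4 did not pass (median 0.78), and every member's value was above 0, with all 6 that were at least 2-fold apart of day 0 origin. Pramel6, a naive ESC gene of this list, was at 6.00 and 6.09 in PML KD EBs, 5.83 and 5.81 in WT EBs, 5.89 and 5.97 in PML KD ESCs and 8.15 and 7.84 in WT ESCs. Only WT ESCs stood above the rest, with a difference of changes of 2.29 ± 0.15 and Pramel7 beside it at 2.02 ± 0.13. Eras, an ESC-specific Ras gene, was at 2.57. Srgn, the proteoglycan serglycin, which is strongly made by parietal endoderm, took another course: it was at 13.34 and 13.37 in PML KD EBs, 13.71 and 13.74 in WT EBs, 7.74 and 7.71 in PML KD ESCs and 11.16 and 11.17 in WT ESCs. It rose in both lines, and at day 4 PML KD was at -0.37 relative to WT. Its difference of changes of 3.07 ± 0.09 (adjusted p = 6.26e-06) stood beside a day 0 difference of -3.44 ± 0.06. In the deposited workbook, another summary of the same arrays, Srgn gave 0.26 (adjusted p = 0.273, not passed). Id2, an inhibitor of helix-loop-helix factors and a target of BMP signals, was at 10.38 and 10.42 in PML KD EBs, 9.64 and 9.75 in WT EBs, 7.37 and 7.54 in PML KD ESCs and 9.62 and 9.70 in WT ESCs. WT stayed level while PML KD rose by 2.95 and ended 0.71 above it, with a difference of changes of 2.91 ± 0.12 (adjusted p = 9.93e-06). The largest single values in the class belonged to the Y-linked Eif2s3y, a translation initiation factor subunit, at 4.81 ± 0.14, and to Spink10, of the Kazal-type protease inhibitor family, at 4.53 ± 0.27, which was high in WT ESCs alone.

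In the 157 lower genes of day 0 origin PML KD ESCs lay above WT ESCs, again by definition. Over time PML KD fell in 145 of them, while WT rose in 84 and fell in 33. Lefty1, a secreted inhibitor and target of Nodal signalling, was at 8.81 and 8.72 in PML KD EBs, 9.25 and 9.14 in WT EBs, 10.68 and 10.70 in PML KD ESCs and 9.03 and 9.04 in WT ESCs. PML KD ESCs were the high group, with a difference of changes of -2.08 ± 0.10 (adjusted p = 1.42e-05) against -0.43 ± 0.07 at day 4. Its pathway partners moved alike at day 0: Tdgf1, the Nodal co-receptor Cripto, had a difference of changes of -1.14 ± 0.10 (adjusted p = 9.39e-05) and Nodal, the ligand, of -0.80 ± 0.10 (adjusted p = 0.000426), which after a median shift was -0.26 and did not pass (adjusted p = 0.0616). Over the whole list of Nodal and TGF-beta genes 10 of 28 were lower, 5 higher and 13 did not pass (median -0.26). Trh, thyrotropin-releasing hormone, was at 11.14 and 11.15 in PML KD EBs, 11.23 and 11.34 in WT EBs, 13.52 and 13.49 in PML KD ESCs and 11.22 and 11.25 in WT ESCs. PML KD ESCs alone were high and the other 3 groups lay close together, and its difference of changes was -2.41 ± 0.10 (adjusted p = 9.93e-06). Porcn, the acyltransferase that Wnt ligands need for secretion, had a difference of changes of -2.75 ± 0.12 (adjusted p = 9.93e-06). Its day 0 difference was 2.13 ± 0.08 and its day 4 difference -0.62 ± 0.08 (adjusted p = 0.00129). The adhesion molecule Ncam1 was at -1.72 ± 0.14 and the membrane protein Adam23 at -2.38 ± 0.11. Their day 4 differences of 0.43 and -0.35 also passed (adjusted p = 0.0164 and 0.0114). Tet1, which oxidizes 5-methylcytosine, was at -1.07 ± 0.10 with a day 4 difference of -0.07 ± 0.07 that did not pass (adjusted p = 0.526). In cholesterol synthesis 9 of 20 genes were lower and 6 higher: Ebp and Msmo1, enzymes of its later steps, were at -1.60 and -1.46, and Hmgcs1, near its beginning, at 1.06, all of day 0 origin. Itgb1, the integrin beta-1 chain, was at -1.42 ± 0.09. For this gene WT ESCs were the low group, at 10.27 and 10.30, and the change of -0.045 in PML KD did not pass (adjusted p = 0.603). Itgb1 and Msmo1 lie on chromosome 8, whose genes were displaced upward on the PML KD ESC arrays as a group. The part of that displacement was not tested.

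**Figure D3:**
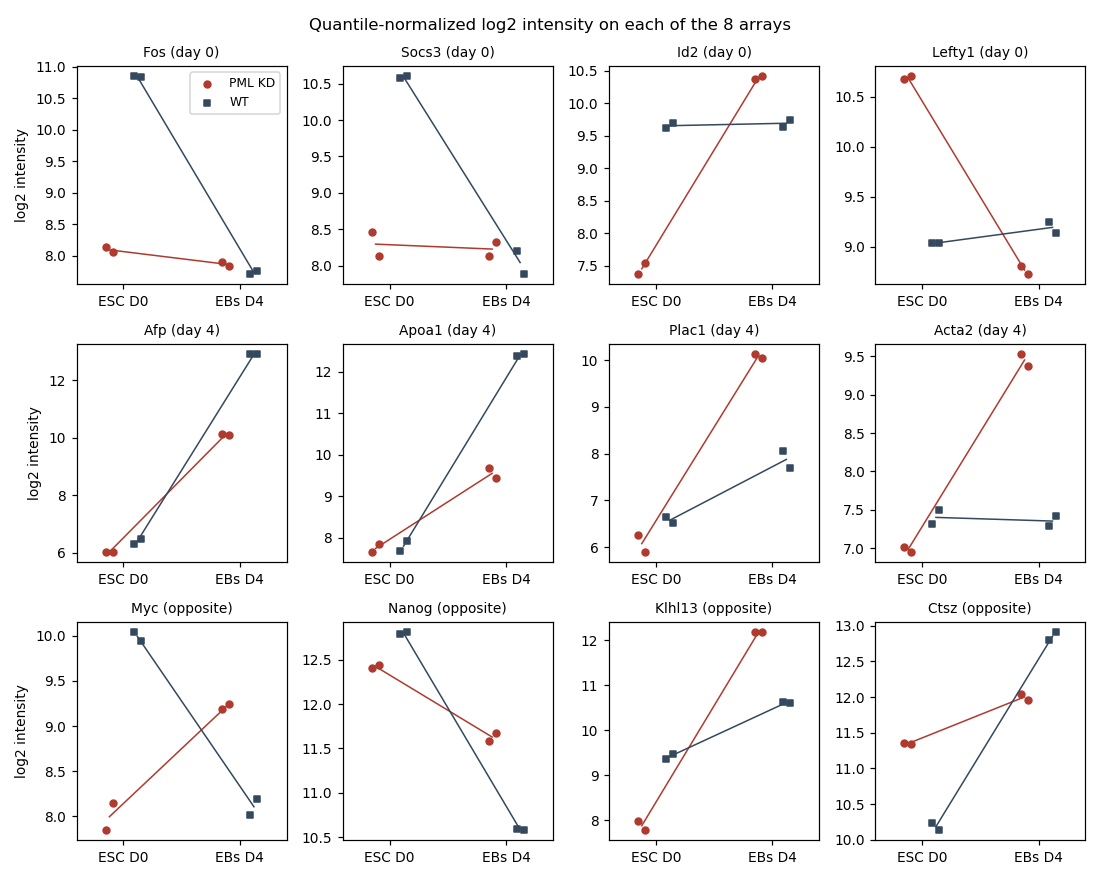
Quantile-normalized log2 intensity on each of the 8 arrays for 4 genes of day 0 origin (top row), 4 of day 4 origin (middle) and 4 opposite genes (bottom), with PML KD (circles) left of WT (squares) at each day and lines joining group means. In the top row the lines are apart at day 0 and close at day 4. Exceptions are Id2 and Lefty1, which end 0.71 and -0.43 apart. In the middle row the lines are further apart at day 4, and Afp, Plac1 and Acta2 start -0.38, -0.50 and -0.42 apart. In the bottom row they cross.

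Many lower genes of day 4 origin belong to the visceral endoderm list, which held 14 of the 57. Afp, alpha-fetoprotein, was at 10.15 and 10.11 in PML KD EBs, 12.90 and 12.91 in WT EBs, 6.04 and 6.02 in PML KD ESCs and 6.32 and 6.50 in WT ESCs. All 4 ESC arrays were low, and WT EBs rose far above PML KD EBs, with a difference of changes of -2.40 ± 0.11 (adjusted p = 1.17e-05) and a change over time of 4.10 in PML KD and 6.50 in WT. Apoa1, the main protein of high-density lipoprotein, was at 9.67 and 9.43 in PML KD EBs, 12.38 and 12.42 in WT EBs, 7.65 and 7.84 in PML KD ESCs and 7.68 and 7.92 in WT ESCs. The ESC arrays overlapped and the EB arrays did not, with a difference of changes of -2.79 ± 0.16 (adjusted p = 2.43e-05). Apoa4 and Apob, further lipoprotein components, were at -2.92 ± 0.14 and -2.66 ± 0.15, and day 0 differences of 0.06 and 0.02 did not pass. Of the 43 measured genes of primitive and visceral endoderm 28 were lower, 3 higher and 12 did not pass (median -0.85, against 0.09 for all genes). All 17 that were at least 2-fold apart were lower, 14 of them of day 4 origin. The 3 higher members were Cubn and Lrp2, endocytic receptors, and Bmp2. Among the transcription factors of the lineage, Gata4 was at -0.98 ± 0.11 (adjusted p = 0.000283), Sox17 at -0.85 ± 0.27 (adjusted p = 0.0362), Foxa2 at -0.47 and Gata6 at -0.38. The last 2 did not pass (adjusted p = 0.0599 and 0.187): Gata6 was -0.76 apart in ESCs already and -1.14 in EBs. The call of Sox17 was lost under 8 alternatives, among them leaving out either WT EB array. In bulk RNA, fewer cells of a type and less RNA per cell cannot be told apart.

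The promoter of Afp is shown as the regulatory sequence of the gene with the largest rise in WT within the class. The 250 bases before its RefSeq start (chr5:90490464-90490713, plus strand; RefSeq, GRCm38.p6) are given 5′ to 3′, with matches to GTTAAT on either strand, part of the HNF1 recognition sequence, in capitals.
Afp: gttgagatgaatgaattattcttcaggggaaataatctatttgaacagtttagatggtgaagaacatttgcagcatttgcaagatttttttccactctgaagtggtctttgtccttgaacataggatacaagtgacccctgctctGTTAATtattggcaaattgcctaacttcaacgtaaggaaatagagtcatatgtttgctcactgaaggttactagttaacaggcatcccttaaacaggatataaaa
GTTAAT was present in 2113 of 32851 windows (6.43%), in 11 of the 47 windows of the visceral endoderm list (23.4%) and in 4 of the 33 windows of its members that passed (12.1%).

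Around the endoderm, basement membrane genes, made in bulk by parietal endoderm, were lower in 13 of 18, higher in 2 and not passed in 3 (median -0.73). After a median shift 8 of the 18 were lower. Cer1, a secreted antagonist of Nodal, BMP and Wnt from the anterior endoderm, was at 7.02 and 7.12 in PML KD EBs, 9.60 and 9.56 in WT EBs, 6.45 and 6.32 in PML KD ESCs and 6.48 and 6.49 in WT ESCs. Its rise over time was 0.69 in PML KD and 3.09 in WT, with a difference of changes of -2.41 ± 0.11 (adjusted p = 1.09e-05). Prss12, the serine protease neurotrypsin, was the lowest protein-coding gene named in the class at -3.11 ± 0.14 (adjusted p = 1.17e-05). Dll1, the Notch ligand of nascent mesoderm, was at -1.37 ± 0.19 (adjusted p = 0.000753); the workbook gave -0.55, short of the threshold (adjusted p = 0.131). The lists of primitive streak and neuroectoderm were near the background, with 6 higher and 7 lower of 29 and 4 higher and 6 lower of 29.

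The 117 higher genes of day 4 origin held trophectoderm, mesenchymal and contractile genes. Plac1, a gene of the placenta, was at 10.13 and 10.05 in PML KD EBs, 8.06 and 7.69 in WT EBs, 6.26 and 5.89 in PML KD ESCs and 6.64 and 6.51 in WT ESCs. It rose in both lines, by 4.01 in PML KD and 1.30 in WT, with a difference of changes of 2.71 ± 0.22 (adjusted p = 6.59e-05). Tfap2c, a transcription factor of trophectoderm and germ cells, was at 10.03 and 9.90 in PML KD EBs, 8.27 and 8.33 in WT EBs, 8.08 and 8.26 in PML KD ESCs and 8.50 and 8.49 in WT ESCs. PML KD EBs stood above the other 3 groups, with a difference of changes of 1.99 ± 0.12 (adjusted p = 2.76e-05), and Krt7, a simple-epithelium keratin, was at 1.67 ± 0.14. In the trophectoderm and placenta list 20 of 26 were higher, 2 lower and 4 did not pass (median 0.97), and of 13 at least 2-fold apart 6 were of day 4 origin, 6 opposite and 1 of day 0 origin. The 2 lower members were Cdx2, at -0.44 ± 0.15 (adjusted p = 0.0439), and Tead4, both factors that specify trophectoderm. The call of Cdx2 was lost in the workbook (adjusted p = 0.0891), with the replicate block (adjusted p = 0.0619) and when 5 of the 8 arrays were left out in turn. Eomes, needed for trophectoderm and mesendoderm, was at 0.40 ± 0.10 (adjusted p = 0.0133), having been lower in PML KD at both days (-1.56 at day 0 and -1.17 at day 4), and after quantile normalization over the probe sets with 1 symbol its call was lost (0.21, adjusted p = 0.122), as it was in the workbook (0.28, adjusted p = 0.136).

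Acta2, smooth muscle actin, was at 9.53 and 9.38 in PML KD EBs, 7.28 and 7.42 in WT EBs, 7.01 and 6.95 in PML KD ESCs and 7.31 and 7.49 in WT ESCs. Only PML KD EBs were high, with a difference of changes of 2.52 ± 0.13 (adjusted p = 1.81e-05). Of 28 contractile and actin genes 22 were higher, 1 lower and 5 did not pass (median 1.09, the highest of the 33 lists), and the 16 at least 2-fold apart fell to day 4 origin in 6, opposite in 7 and day 0 origin in 3. Caldesmon, Cald1, and the calponin Cnn2 were in the opposite class at 2.82 ± 0.12 and 2.03 ± 0.13. The collagen gene Col1a2 was at 1.82 ± 0.16 and the factor of mesenchymal transition Zeb2 at 1.60 ± 0.12, for which the workbook gave 1.11 (adjusted p = 0.116, not passed). Fibroblast markers stayed near the background with 6 of 22 higher and 2 lower (median 0.04). Whether stray cells had a part in any of these values was not tested. Bmp4, a ligand that ESCs express and that supports mesoderm and trophoblast genes, was at 9.91 and 9.94 in PML KD EBs, 8.38 and 8.30 in WT EBs, 11.32 and 11.34 in PML KD ESCs and 11.11 and 11.16 in WT ESCs. It fell in both lines, less so in PML KD, with a difference of changes of 1.39 ± 0.09 (adjusted p = 3.82e-05). In the list of BMP and Id genes 12 of 24 were higher, 1 lower and 11 did not pass (median 0.42). Ldoc1, a retrotransposon-derived gene, was at 3.11 ± 0.14 and the splicing regulator Mbnl3 at 2.77 ± 0.18, both X-linked. The highest point of the scatter of day 0 against day 4 differences, 3830417A13Rik, was singled out after its values were seen: it was at 10.29 and 10.21 in PML KD EBs, 6.07 and 5.93 in WT EBs, 5.72 and 5.16 in PML KD ESCs and 5.70 and 5.28 in WT ESCs, with a difference of changes of 4.30 ± 0.27.

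In the opposite class PML KD was on one side of WT in ESCs and on the other in EBs. Myc, the proto-oncogene and STAT3 target, was at 9.18 and 9.24 in PML KD EBs, 8.02 and 8.19 in WT EBs, 7.85 and 8.15 in PML KD ESCs and 10.04 and 9.94 in WT ESCs. WT fell by 1.89 and PML KD rose by 1.22, which gave a difference of changes of 3.10 ± 0.16 (adjusted p = 1.67e-05) from -2.0 ± 0.11 at day 0 and 1.11 ± 0.11 at day 4. Id3 and Id1 were at 2.38 ± 0.10 and 1.32 ± 0.10, with day 4 differences of 1.09 and 0.49. Id2 crossed as well, with a day 4 difference of 0.71 ± 0.08 (adjusted p = 0.00078). Its share of 0.243 put it just inside the limit of the day 0 class, so the class limit alone sets it apart from Id3 and Id1. The pluripotency factor Nanog was at 11.59 and 11.67 in PML KD EBs, 10.59 and 10.58 in WT EBs, 12.40 and 12.45 in PML KD ESCs and 12.79 and 12.81 in WT ESCs. It fell in both lines, and PML KD was on the lower side of WT at day 0 and on the higher side at day 4, with a difference of changes of 1.42 ± 0.09 (adjusted p = 3.54e-05); the nuclear receptor Nr0b1 had the same shape at 1.67 ± 0.11. In the list of core and naive pluripotency 17 of 36 were higher, 8 lower and 11 did not pass (median 0.22), and after a median shift 27 were higher. Sox2 and Esrrb were at 0.57 ± 0.11 and 0.81 ± 0.09, and Pou5f1, the core factor Oct4, at 0.12, which did not pass (adjusted p = 0.395) but was 0.72 after a median shift (adjusted p = 0.000792). Zfp42 was at 0.31 ± 0.09 (adjusted p = 0.024), and in the workbook at -0.73 (adjusted p = 0.0391), the reverse direction. Its call was also lost when 6 of the 8 arrays were left out in turn (adjusted p = 0.0512 to 0.0788) and with normalization over the probe sets with 1 symbol (adjusted p = 0.0662).

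Cell cycle genes were mostly higher, with 25 of 40 higher, 3 lower and 12 not passed (median 0.50), and all 6 at least 2-fold apart were opposite. Ccnd3, a G1 cyclin, was at 10.31 and 10.32 in PML KD EBs, 9.15 and 9.36 in WT EBs, 9.11 and 8.98 in PML KD ESCs and 9.99 and 10.08 in WT ESCs. PML KD was below WT in ESCs and above it in EBs, with a difference of changes of 2.05 ± 0.13 (adjusted p = 3.03e-05). The ribonucleotide reductase subunits Rrm1 and Rrm2 and the replication licensing subunit Mcm4 were at 1.24, 1.248 and 1.20. In all 3, WT fell over time, while the rise in PML KD passed for Rrm1 and Rrm2 and the change of 0.13 in Mcm4 did not pass (adjusted p = 0.161). The proliferation marker Mki67 missed the threshold at 0.01 (adjusted p = 0.945). Imprinted genes were higher in 16 of 24 and lower in 3 (median 0.59). Plagl1, an imprinted zinc finger factor, was at 8.14 and 8.07 in PML KD EBs, 6.86 and 6.94 in WT EBs, 7.14 and 7.12 in PML KD ESCs and 8.71 and 8.87 in WT ESCs, with a difference of changes of 2.87 ± 0.11 (adjusted p = 9.35e-06); Nnat and Peg10 were at 2.19 ± 0.11 and 1.96 ± 0.11, while Grb10, an adaptor that restrains insulin and IGF receptors, was at -2.21 ± 0.09. The X-linked Klhl13, an adaptor of a ubiquitin ligase, was at 12.17 and 12.18 in PML KD EBs, 10.62 and 10.61 in WT EBs, 7.98 and 7.78 in PML KD ESCs and 9.37 and 9.46 in WT ESCs. It rose in both lines, by 4.30 in PML KD and 1.20 in WT, with a difference of changes of 3.10 ± 0.12 (adjusted p = 8.55e-06). Anxa1, a phospholipid-binding protein, was at 3.21 ± 0.12.

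Lower opposite genes included lysosomal and hypoxia-responsive genes. Ctsz, a lysosomal cysteine protease, was at 12.04 and 11.96 in PML KD EBs, 12.79 and 12.91 in WT EBs, 11.36 and 11.34 in PML KD ESCs and 10.23 and 10.13 in WT ESCs. PML KD started above WT and ended below it, rising by 0.65 against 2.67 in WT, with a difference of changes of -2.02 ± 0.11 (adjusted p = 1.87e-05). The protease Ctsb, the hexosaminidase subunit Hexa, the cholesterol carrier Npc2 and the thiol reductase Ifi30 were at -1.61, -1.75, -1.48 and -2.35. Ctsb lies on chromosome 14 and Ifi30 on chromosome 8, whose genes were displaced upward on the PML KD ESC arrays. The part of that displacement in their values was not tested. In the list of lysosome and endocytosis 20 of 29 were lower, 5 higher and 4 did not pass (median -0.65). Of the 10 lower ones at least 2-fold apart 6 were opposite, near the share among all lower genes of that size (323 of 555). After a median shift 13 of the 29 were lower. Apoe, an apolipoprotein of many tissues, was opposite at -1.88 ± 0.09, unlike the other apolipoproteins named here. Among hypoxia-responsive genes the oxidase Ero1a was at -1.99 ± 0.09, the growth factor Vegfa at -1.53 ± 0.10 and the collagen-modifying Plod2 at -2.01 ± 0.10. In the list of glycolysis and hypoxia, however, 12 of the 36 members were higher and 12 lower. Of its 5 lower members at least 2-fold apart 3 were of day 4 origin and only 2 opposite. Ero1a, like Ctsb, lies on chromosome 14. Kansl1, a scaffold of a histone acetyltransferase complex, was the lowest named gene of all 2018 at 9.71 and 9.68 in PML KD EBs, 11.54 and 11.54 in WT EBs, 11.46 and 11.72 in PML KD ESCs and 9.49 and 9.58 in WT ESCs. PML KD ESCs and WT EBs lay together high, PML KD EBs and WT ESCs together low, with a difference of changes of -3.90 ± 0.13 (adjusted p = 6.87e-06). Ntn1, a guidance cue, and the long noncoding RNA Firre were at -2.88 ± 0.10 and -2.82 ± 0.11.

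Measures of the arrays as wholes also crossed, with PML KD above WT in ESCs and below it in EBs. This is the direction of the 323 lower opposite genes; the 830 higher ones crossed the other way. The median deposited signal was 181 and 183 in PML KD EBs, 196 and 198 in WT EBs, 199 and 199 in PML KD ESCs and 171 and 169 in WT ESCs. Among the 12146 probe sets that the platform table does not list, 20.2% passed at least 2-fold (691 higher and 1765 lower, 66.5% of them opposite), against 10.4% of the 23410 listed ones (1705 higher and 719 lower, 57.7% opposite). Small nucleolar RNA genes, looked at after the values were seen, had a median level of 11.1 and 11.2 in PML KD EBs, 12.2 and 12.1 in WT EBs, 11.6 and 11.7 in PML KD ESCs and 10.6 and 10.6 in WT ESCs. Of these 51 genes 48 were lower and the other 3 were also below 0, the highest at -0.07, with 25 opposite of the 33 at least 2-fold apart. The part of these array-wide differences in the values of the opposite genes was not tested. The share of opposite genes was 56.9% with the values as deposited, 58.6% after a median shift, 60.0% in the workbook and 55.9% with normalization over the probe sets with 1 symbol.

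In the 2 small classes PML KD differed from WT in the same direction throughout. Pgk1, a glycolytic enzyme encoded on X, was at 12.60 and 12.64 in PML KD EBs, 12.98 and 12.95 in WT EBs, 10.61 and 10.51 in PML KD ESCs and 12.19 and 12.20 in WT ESCs. It was lower in PML KD at both days, less so at day 4, with a difference of changes of 1.28 ± 0.10 (adjusted p = 5.46e-05), and the secreted protease Htra1 was at 1.60 ± 0.12 in the same way. Piezo1, a stretch-activated channel, was higher in PML KD at both days and at -1.41 ± 0.11. It lies on chromosome 8, whose genes were displaced upward on the PML KD ESC arrays, and the part of that displacement was not tested. Where the gap widened, Prtg, a cell-surface protein of the early embryo, and Fzd2, a Wnt receptor, were at 1.49 ± 0.16 and 1.49 ± 0.12, and Pga5, a pepsinogen, at -1.82 ± 0.13.

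Other lineage genes differed less. The epiblast gene Fgf5 rose in both lines, by 2.99 in PML KD and 3.70 in WT, with a difference of changes of -0.71 that did not pass (adjusted p = 0.0537). Otx2 was at 0.53 ± 0.10 (adjusted p = 0.00378), a call that was lost in the workbook (0.14, adjusted p = 0.438). The DNA methyltransferase genes Dnmt3b and Dnmt3l were at 0.91 ± 0.13 and 0.69 ± 0.10, and the RNA-binding Lin28a at 0.91 ± 0.10. For Dnmt3b and Lin28a most of it was present in ESCs, with day 0 differences of -1.20 and -1.11. The mesoderm genes Mixl1 and Kdr were at 0.46 ± 0.12 (adjusted p = 0.0159) and 0.91 ± 0.17 (adjusted p = 0.00345); the call of Mixl1 was lost with the values as deposited (0.11, adjusted p = 0.501), in the workbook (0.22, adjusted p = 0.621), without PML KD EB replicate 1 (0.45, adjusted p = 0.0537) and with normalization over the probe sets with 1 symbol (0.29, adjusted p = 0.0836). Of the neural genes, Pax6 at -0.15 and Sox1 at 0.34 did not pass (adjusted p = 0.255 and 0.157), and Nes, which many proliferating cells express, was at 1.11 ± 0.18 (adjusted p = 0.00165) with a day 4 origin.

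In the remaining lists the counts were as follows, against 27.4% of all genes higher and 14.7% lower. Early mesoderm, blood and endothelium had 14 higher and 2 lower of 30, mesenchymal transition 13 and 5 of 29, and epithelial keratins and claudins 18 and 8 of 33. Formative and primed epiblast genes had 13 higher and 8 lower of 32, and FGF and ERK feedback genes 8 and 9 of 24. Wnt pathway genes had 8 higher and 10 lower of 37. Interferon-stimulated genes had 13 higher and 3 lower of 31 and germ line genes 10 and 2 of 29. For PML nuclear body components, the partners of the knocked-down protein, 12 were higher and 7 lower of 33, with a median of 0.21. Polycomb genes had 11 higher and 8 lower of 28, genes of DNA methylation and TET enzymes 6 and 4 of 16, and p53 targets 8 and 5 of 25. Genes of amino acid stress driven by ATF4 had 11 higher and 10 lower of 29. Ribosomal protein genes had 10 higher and 1 lower of 30, with a median of 0.23. Of the 8 Y-linked genes measured 5 were higher, 4 of them at least 2-fold apart and of day 0 origin.

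**Figure D4:**
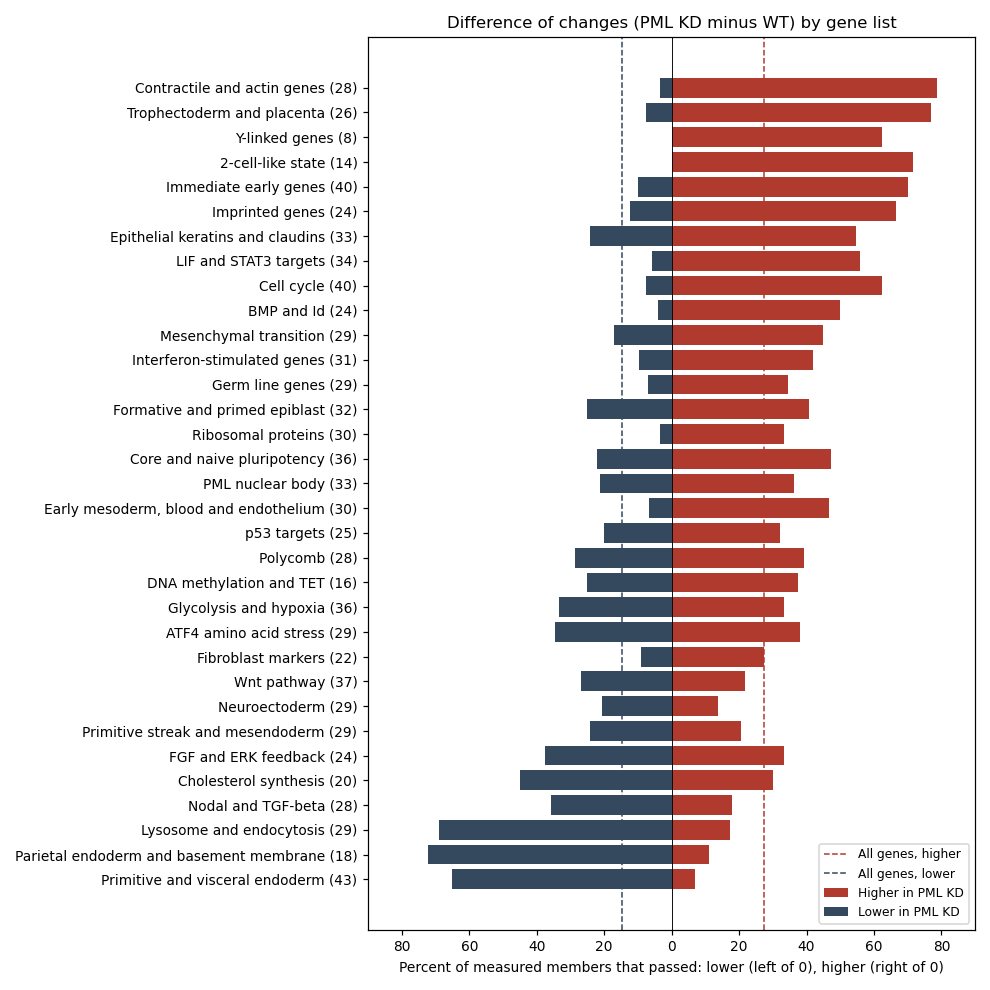
For each of 33 gene lists (number of measured members in brackets), the percent of members lower (left of 0) and higher (right of 0) in the difference of changes at an adjusted p under 0.05, ordered by the list's median; dashed lines mark the same for all genes, 14.7% and 27.4%. Contractile, trophectoderm and 2-cell-like lists reach furthest right, and visceral endoderm, basement membrane and lysosome lists furthest left.

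MicroRNA genes were looked at after the values were seen. The probe sets of microRNA genes read hairpin or precursor RNA, so the values are not levels of mature microRNAs. Of 296 measured microRNA genes 19 were higher, 75 lower and 202 did not pass, so that 31.8% passed against 42.2% of all genes, with a median of -0.16 and 127 of them dim on every array (below the 25th percentile of its signal). The Mir302 hairpins, a cluster expressed in pluripotent cells, lie within 462 bases (RefSeq, GRCm38.p6, chr3:127545228-127545689, plus strand). The mature 3p sequences of Mir302b, Mir302d and Mir302c are shown, with the seed (bases 2 to 8) that selects targets in capitals, beside those of 2 lower genes.
miR-302b-3p: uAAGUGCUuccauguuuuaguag
miR-302d-3p: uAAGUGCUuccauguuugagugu
miR-302c-3p: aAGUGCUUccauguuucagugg
miR-15a-5p: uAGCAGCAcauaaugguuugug
miR-34a-5p: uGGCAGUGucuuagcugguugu
The first 2 share the seed AAGUGCU, and the RefSeq entry of miR-302c-3p begins 1 base further along the same run of letters. Mir302a was at 7.52 and 7.41 in PML KD EBs, 5.86 and 5.63 in WT EBs, 4.55 and 4.61 in PML KD ESCs and 5.06 and 5.24 in WT ESCs. Only PML KD EBs were high, with a difference of changes of 2.29 ± 0.14 (adjusted p = 3.03e-05) and a day 4 origin. Mir302c and Mir302d were opposite at 2.31 ± 0.21 and 2.02 ± 0.28, and Mir302b, dim on every array, was at 1.62 ± 0.23. The others were dim in part, with the 25th percentile at 6.23. Mir302a was below it on all arrays except those of PML KD EBs, Mir302c on every ESC array and Mir302d in PML KD ESCs. Their day 0 differences, and so their classes, rest on this low signal. Larp7, the gene they lie in, missed the threshold at 0.33 ± 0.12 (adjusted p = 0.0613). Mir15a was at 7.63 and 7.66 in PML KD EBs, 7.83 and 7.80 in WT EBs, 9.34 and 9.21 in PML KD ESCs and 7.20 and 7.08 in WT ESCs. It was high in PML KD ESCs alone, with a difference of changes of -2.31 ± 0.11 (adjusted p = 1.36e-05); it lies on chromosome 14. Mir34a, a gene that p53 activates, was opposite at -2.05 ± 0.18 (adjusted p = 9.21e-05). The number of lower microRNA genes depended on the scaling, at 75 here and 147 with the values as deposited.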

How the data were processed

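RNA of 8 samples was measured on 8 Affymetrix MoGene 1.0 ST arrays, 2 per group; the labels do not say whether the 2 arrays of a group stand for different cultures, and the p-values then rest on array-to-array spread that may be technical. The authors deposited linear intensity values, 1 per probe set (35556), made with the Transcriptome Analysis Console per the submitters' processing notes; the sources used here name no background correction, normalization or genome build. A deposited workbook holds the authors' log2 values per Ensembl gene over constitutive exons, per the file headers; it served as an alternative, and its 4 columns of group means were not used.

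Intensities were turned to log2 and quantile normalized over the 8 arrays. Probe sets with 1 gene symbol in the platform table (21789, with 1621 of several symbols and 12146 not listed left out) gave 19938 genes, the brightest probe set standing for each of the 999 genes with more than 1. Limma 3.58.1 in R 4.3.3 fitted the 4 groups' means, leaving 4 residual degrees of freedom; the Benjamini-Hochberg adjustment ran over all 19938 genes, and the fit was tested on simulated data. The number of arrays limits the precision. Replicate numbers were not taken to pair samples: deviations within groups correlated at -0.07 to 0.05 between groups.

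Genes named are the 6 largest by class and direction with non-overlapping groups (2 in the small classes), up to 4 of smallest adjusted p per list, and a set of lineage genes; exceptions are stated. The members and the 33 lists were chosen with earlier results of these data known. Of 888 listed genes 815 were measured; T is not analysed here. Alternatives were the scaling, the workbook, brighter genes, averaged probe sets, a replicate block, chromosomes 8, 14 and Y left out, each array left out, and other class limits; normalization over probe sets with 1 symbol and the fit of the 4 EB arrays alone were chosen after seeing the data.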

Additional observations from a re-analysis of the deposited data

Results flagged for a closer look

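The change over time differed between PML KD and WT in 8404 of 19938 genes by limma's test of the difference itself (adjusted p under 0.05, Benjamini-Hochberg). In 1051 of the 2018 genes that were at least 2-fold apart, both changes over time passed and went in opposite directions in PML KD and WT. This count of opposite directions was not recomputed under other scalings.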

How the results depend on the processing

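Alternatives were run for the numbers of genes that passed, the class shares and 11 of the 33 lists in 1 direction each. They were also run for the microRNA and small nucleolar RNA genes. The counts of the other lists, and those of rises and falls over time, were not recomputed. Those run stayed within 1.5 times except as follows. After a median shift 3350 genes were at least 2-fold apart, 27 of the pluripotency list were higher, and 13 of the lysosome and 8 of the basement membrane list were lower. With the values as deposited 147 microRNA genes were lower. With class limits at 0.333 and 0.667, 14.2% of genes were of day 4 origin, and the order of the other classes turned (46.2% day 0 and 38.4% opposite). Leaving out a PML KD EB array gave 3419 (replicate 1) or 3390 (replicate 2) calls at day 4; over all 8 arrays left out in turn the day 4 calls were 3390 to 5502, those of the difference of changes 6967 to 7773, and the opposite share 55.6% to 58.0%. The number of arrays limits what a missing call can show. With the replicate block 8175 genes passed the difference of changes. Each group has 1 array of each replicate number, so the block leaves every fitted difference unchanged. The class shares could move only through the calls, and they did not.

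Alternatives were run for 109 of the single genes named. Among these, Zfp42 reversed with a call (-0.73 in the workbook). Klf4, Tbx3 and Gata6, which did not pass in the report, also changed sign under some alternatives, but did not pass with the changed sign. Some genes that did not pass in the report did so elsewhere, among them after a median shift Pml (0.70), Klf4 (0.73), Tbx3 (0.57) and Sox1 (0.62), with the values as deposited Foxa2 (-0.65), Fgf5 (-0.84) and Pax6 (-0.47), and without PML KD EB replicate 2 Gata6 (-0.59). The cause of these moves was not tested.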

Other observations

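Small nucleolar RNA genes, which guide chemical modification of ribosomal and spliceosomal RNA, were looked at after the values were seen. Of 51 measured genes 48 were lower in the difference of changes, with a median of -1.27, against 14.7% of all genes. Their median PML KD minus WT difference was -0.52 in EBs and 0.74 in ESCs. Snord118, the U8 RNA of ribosomal RNA maturation, was at 8.59 and 8.61 in PML KD EBs, 11.74 and 11.56 in WT EBs, 9.11 and 9.20 in PML KD ESCs and 8.27 and 8.38 in WT ESCs, with a difference of changes of -3.88 ± 0.12 (adjusted p = 6.87e-06) and a day 4 origin. WT EBs stood far above the other 3 groups. Snora75 was opposite, at 9.27 and 9.14 in PML KD EBs, 11.61 and 11.31 in WT EBs, 10.54 and 10.39 in PML KD ESCs and 9.25 and 9.24 in WT ESCs. Many of these small RNAs lie within introns of host genes, and the host genes were not compared.

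Of 739 X-linked genes 249 were higher and 88 lower (median 0.21, against 0.09 for all genes), and 123 (16.6%) were at least 2-fold apart, 102 of them higher. By origin, 36 of the 123 were day 0, 14 day 4 and 69 opposite. Of all genes 27.4% were higher, 14.7% lower and 10.1% at least 2-fold apart. Of those 2018 genes 72.5% were higher, and 32.4% were of day 0 origin, 8.62% of day 4 origin and 57.1% opposite, so the split by origin was close to that of all genes.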
